A study of Mus musculus with 14 samples.

Results

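The genes described here encode 8 enzymes that can oxidize 2-phenylethylamine (PEA) or other primary and xenobiotic amines: the monoamine oxidases Maoa and Maob, the copper amine oxidases Aoc1, Aoc2 and Aoc3, and the flavin-containing monooxygenases Fmo1, Fmo2 and Fmo5. They were chosen by name, not by a rule on measured values, as the symbols found in both tables of normalized counts. Earlier results of these data were known when they were chosen. All 8 were found among the 51211 gene symbols of each table.

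Amines such as PEA are broken down by oxidases that remove the amino group and leave an aldehyde, which aldehyde dehydrogenases then turn into an acid or reductases into an alcohol. Monoamine oxidases sit on the mitochondrial outer membrane and use flavin, and PEA is a classical substrate of the B form, whereas serotonin is a classical substrate of the A form. Copper amine oxidases act on primary amines at the cell surface or outside the cell, and flavin-containing monooxygenases add oxygen to the nitrogen or sulfur of many foreign compounds in the endoplasmic reticulum. The nasal mucosa is known as a tissue rich in such enzymes of foreign compound metabolism.

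RNA was sequenced from olfactory epithelia of 14 mouse pups taken at postnatal day 5, in 2 experiments. In the first, 3 Kir2.1 mice, which carried OMP-IRES-tTA together with tetO-Kir2.1-IRES-tauLacZ and in which the Omp locus of mature olfactory sensory neurons drives a transactivator that turns on the potassium channel Kir2.1, were set against 3 control mice that carried the transactivator alone (OMP-IRES-tTA het). In the second, 4 wild type mice exposed to PEA without interruption from P0 to P5 were set against 4 wild type mice with no exposure. The sample records give C57BL/6 as the background of every mouse, while the methods name CD-1 pups for odor exposure. The records also put the term Kir2.1-Off on the Kir2.1 mice, although these pups were taken while the transgene was on. Whole tissue was taken, so that a lower value of a gene in a group cannot be told apart between fewer cells of a type and less RNA per cell.

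Values are gene-level estimates scaled by the authors between the libraries of one experiment, called normalized counts here. Their sum lay between 33049111 and 34198478 per mouse in the Kir2.1 experiment and between 11476120 and 12467331 in the PEA experiment, and does not give the depth of a library, which is unknown. Kcnj2, the gene of Kir2.1, lay at 17926 to 24193 normalized counts in Kir2.1 mice against 986 to 1274 in their controls. Vomeronasal receptor genes, which the olfactory epithelium should lack, had a mean log2 value over 573 genes of 1.54 to 2.47 in 5 libraries (Kir2.1 control 1, PEA controls 1, 2 and 3, and PEA-exposed mouse 1) and of 0.50 to 0.70 in the other 9. The X-inactivation transcript Xist was high in 4 of 6 mice of the Kir2.1 experiment, 2 in each group, and in 5 of 8 mice of the PEA experiment, 2 controls and 3 exposed mice. The 2 tables were normalized apart and their libraries were prepared in different ways, so no level was compared between experiments.

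Maoa (ENSMUSG00000025037, GRCm38 chrX:16619698-16687818, + strand) and Maob (ENSMUSG00000040147, chrX:16709282-16817366, - strand) lie end to end with 21463 bases between them. Aoc2 (ENSMUSG00000078651, chr11:101325063-101329702) and Aoc3 (ENSMUSG00000019326, chr11:101330605-101341938) lie in tandem on the + strand with 902 bases between them, and Aoc3 overlaps Gm28156 on the other strand. Fmo1 (ENSMUSG00000040181, chr1:162829561-162866610) and Fmo2 (ENSMUSG00000040170, chr1:162874317-162898726) are neighbours on the - strand, 7706 bases apart. Aoc1 (ENSMUSG00000029811, chr6:48872896-48909188) and Fmo5 (ENSMUSG00000028088, chr3:97628804-97655282), both on the + strand, have no other member beside them.

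How well a read can tell the neighbours apart depends on how far their sequences are identical. Of all pairs within a class, Aoc2 and Aoc3 shared the longest identical run of transcript bases, 125 bases in the coding part of exon 1 of each gene, and Maoa and Maob shared 35 bases in the coding part of exon 12. The other pairs within a class shared at most 24. These 2 runs are shown because reads that fall within them carry no information on which gene they came from.
Aoc2 (chr11:101325456-101325580, +) and Aoc3 (chr11:101331315-101331439, +): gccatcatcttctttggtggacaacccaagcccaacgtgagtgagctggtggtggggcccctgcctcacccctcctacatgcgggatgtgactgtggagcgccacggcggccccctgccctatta
Maoa (chrX:16682201-16682235, +) and Maob (chrX:16716449-16716483, -): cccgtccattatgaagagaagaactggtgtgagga
The reads of the Kir2.1 libraries were shorter than the Aoc run and a little longer than the Mao run, and those of the PEA libraries were longer than both. Of the distinct 31-base words in the transcripts of a gene, 10.7% of those of Aoc2 occurred in other genes, most often Aoc3 (179 words). The share was 5.31% for Aoc3, 6.91% for Maoa and 7.95% for Fmo1, whose shared words mostly matched Gm48161 on the opposite strand (474 words). It was 1.39% for Aoc1 and between 0.0355% and 0.473% for Maob, Fmo2 and Fmo5. Values of Aoc2 and Aoc3 are uncertain for this reason, and those of Fmo1 in the unstranded Kir2.1 libraries may hold reads of Gm48161.

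All 8 genes were detected in every mouse. To compare genes of different length, normalized counts were divided by the length of the longest coding transcript (GENCODE vM21) and given per kb. In control mice of the Kir2.1 experiment Fmo2 stood first with 1134 ± 303 per kb (mean ± SD, n = 3), and Maob followed with 988 ± 83.2, the ranges of both overlapping. Fmo1 with 591 ± 82.4, Maoa with 279 ± 16.6 and Fmo5 with 149 ± 18.7 per kb each lay apart from the genes above and below them. Aoc1 (95.6 ± 14.9), Aoc3 (75.3 ± 22.6) and Aoc2 (49.5 ± 15.8) came last, and each overlapped the next.

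**Figure D1:**
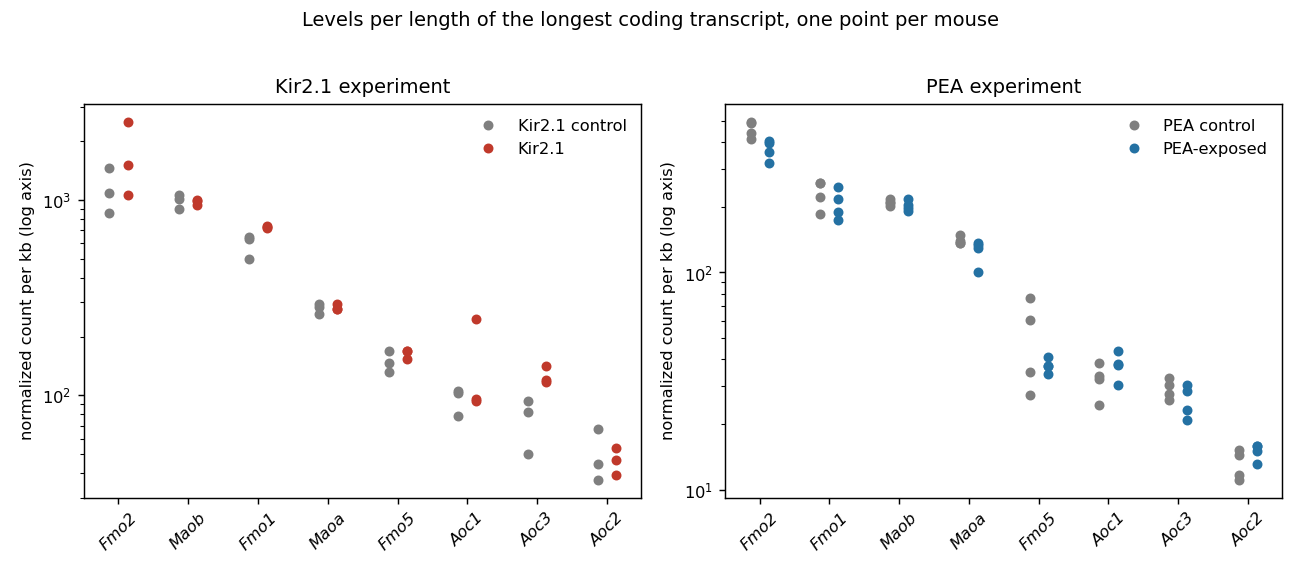
Normalized counts per kb of the longest coding transcript (log axis) for the 8 amine oxidases, ordered by the control mean, with 1 point per mouse (grey, control; red, Kir2.1; blue, PEA-exposed). In both experiments Fmo2 had the highest control mean and Aoc2 the lowest, and Aoc1, Aoc2 and Aoc3 lay below both monoamine oxidases in every mouse.

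The PEA experiment gave a like order among its controls. Fmo2 was at 459 ± 40.4 per kb (n = 4), apart from Fmo1 (231 ± 34.5) and Maob (210 ± 6.92), which overlapped. Maoa was at 140 ± 5.86 and again lay apart from its neighbours in the order. Fmo5 (49.7 ± 22.6), Aoc1 (32.2 ± 5.68) and Aoc3 (29.1 ± 3.02) overlapped, and Aoc2 was lowest at 13.1 ± 2.06. Of the total per kb over all 8 genes, flavin-containing monooxygenases made up 49.9% to 69.1%, monoamine oxidases 25.8% to 42.7% and copper amine oxidases 5.08% to 10.7% over the 14 mice. The length used moves these values. With the median length of the coding transcripts the shares were 65.6% to 80.3%, 15.8% to 28.7% and 3.88% to 8.03%. Fmo1 then lay above Maob in the Kir2.1 controls (1310 ± 183 against 988 ± 83.2 per kb). It also did so in the PEA controls (512 ± 76.4 against 210 ± 6.92), without overlap in either group. The means of Fmo5 and Maoa traded places in the Kir2.1 controls. The mean of Aoc3 was above that of Aoc1 in both control groups (111 against 100 and 42.7 against 33.7).

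The first comparison asks whether silencing of the olfactory neurons went along with a different level of these enzymes. Each gene with a mean of at least 10 normalized counts was tested by limma after adding 1 and taking log2. Every log2 fold change is given on this log2(value + 1) scale, on which differences of low genes come out too small. All 8 members passed this filter in both experiments. In Kir2.1 mice 0 of 8 members passed the adjusted p threshold of 0.05 (limma, Benjamini-Hochberg over all genes tested), against 70 of 19807 genes (0.353%). At an unadjusted p under 0.05 stood 2 members, Aoc3 and Fmo1, both higher in Kir2.1 mice, against 11.1% of all genes in either direction and 4.93% in this direction. The same 2 genes were the members whose groups did not overlap, against 16.3% of all genes and 7.26% with Kir2.1 mice higher. The median log2 fold change was 0.22 over the members and 0.01 over all genes tested. By the methods, littermates served as controls in the Kir2.1 experiment, but which mice shared a litter is not given in the sources used here, and p-values measure only the spread between these mice.

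Maoa, which clears serotonin and noradrenaline, had 1219, 1086 and 1185 normalized counts in the controls and 1155, 1221 and 1156 in the Kir2.1 mice. Maob, the form with the higher affinity for PEA, had 2159, 2438 and 2548 in the controls and 2263, 2414 and 2379 in the Kir2.1 mice. The Kir2.1 values of both genes lay within or close to the range of the controls. The log2 fold change was 0.02 for Maoa (SE 0.08, 95% interval -0.17 to 0.20, limma adjusted p = 0.966) and -0.01 for Maob (SE 0.08, interval -0.21 to 0.18, limma adjusted p = 0.974). As folds these intervals run from 0.891 to 1.15 and from 0.865 to 1.13. The balance of both genes within a mouse, log2 Maoa minus log2 Maob, was -0.82, -1.17 and -1.10 in the controls and -0.97, -0.98 and -1.04 in the Kir2.1 mice, a difference of 0.03 (exact two-sided permutation p = 0.900).

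**Figure D2:**
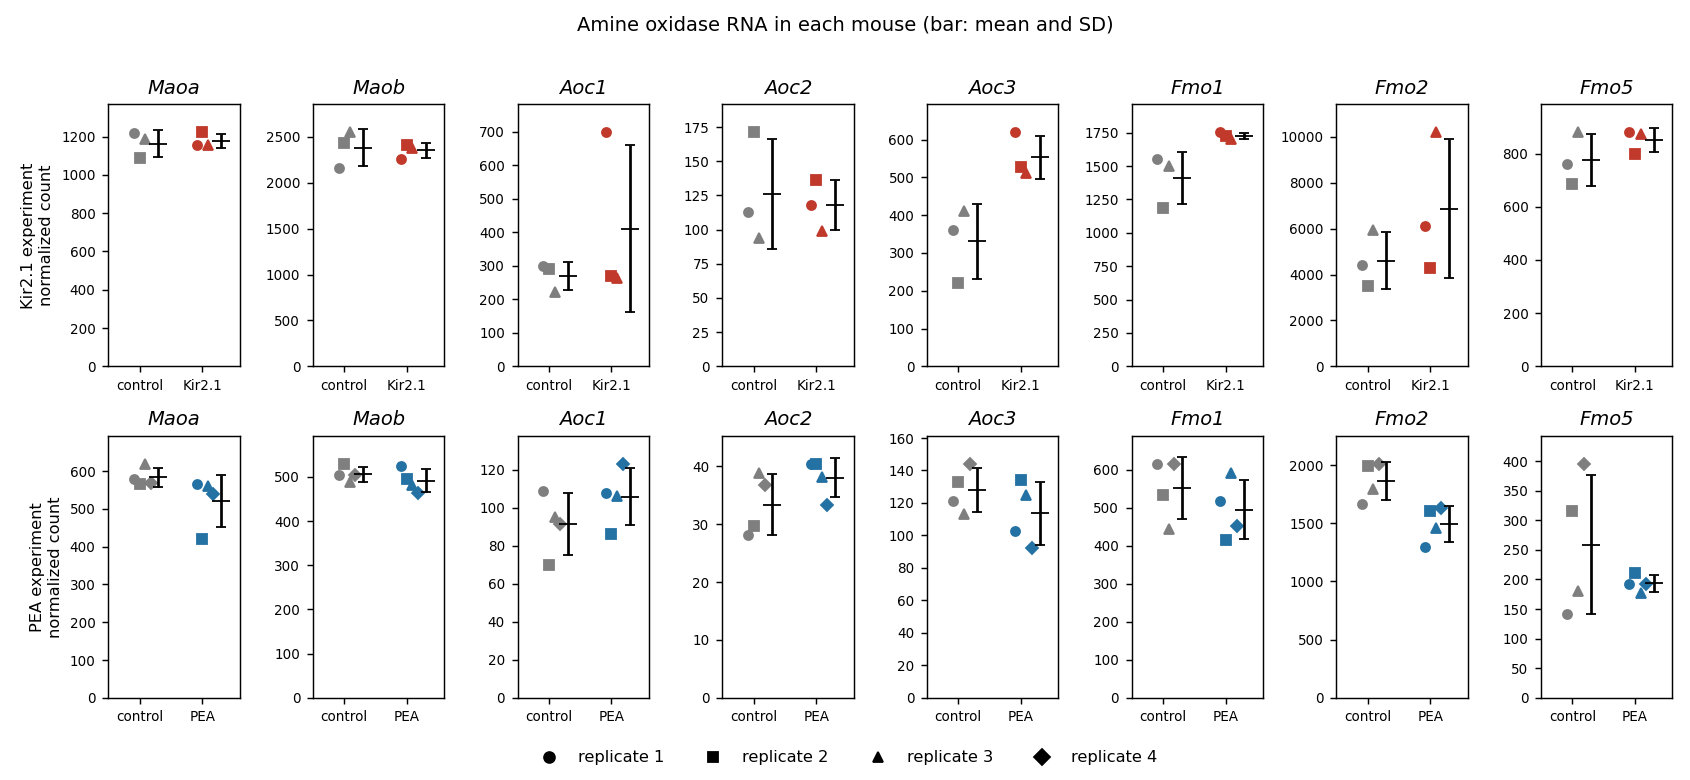
Normalized counts (linear axes from 0) of the 8 amine oxidases in each mouse, with the Kir2.1 experiment above and the PEA experiment below, marker shapes for the replicate number and bars for mean and SD. Kir2.1 mice lay above all controls for Aoc3 and Fmo1, PEA-exposed mice lay below all controls for Fmo2 and, by a narrow margin, Maoa, and Kir2.1 mouse 1 stood alone for Aoc1.

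Of the copper amine oxidases, Aoc3, known as the vascular adhesion protein of endothelium, smooth muscle and fat cells, had 362, 220 and 412 normalized counts in the controls and 619, 528 and 513 in the Kir2.1 mice. Every Kir2.1 mouse lay above every control, and control mouse 2 was the lowest. This is 1.72-fold higher (log2 fold change 0.78, SE 0.23, 95% interval 0.24 to 1.33). The unadjusted limma p was 0.0109, the adjusted p 0.271 and the exact two-sided permutation p 0.100, the smallest that 3 against 3 mice allow. Without control mouse 2 the log2 fold change was 0.51.

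Aoc1, a secreted diamine oxidase that acts on histamine and putrescine, had 298, 291 and 222 normalized counts in the controls and 698, 271 and 264 in the Kir2.1 mice. A single mouse, Kir2.1 mouse 1, stood far above the other 5 mice. The log2 fold change of 0.46 (SE 0.37, interval -0.41 to 1.32, limma adjusted p = 0.735) became -0.0048 without it. Aoc2, a paralog of Aoc3 described first in the retina, had 113, 171 and 94.1 in the controls and 118, 136 and 99.2 in the Kir2.1 mice, with all Kir2.1 values inside the control range (log2 fold change -0.06, interval -0.65 to 0.53, limma adjusted p = 0.966).

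Among the flavin-containing monooxygenases, Fmo1 had 1549, 1185 and 1498 normalized counts in the controls and 1751, 1726 and 1705 in the Kir2.1 mice. The Kir2.1 mice lay close together and above every control. The values were 1.23-fold higher (95% interval 1.03 to 1.47; log2 fold change 0.30, SE 0.11, unadjusted limma p = 0.0283, adjusted p = 0.371, exact permutation p = 0.100). Without control mouse 2, the lowest, the log2 fold change was 0.18.

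Fmo2, the form known from lung, had 4430, 3480 and 5923 normalized counts in the controls and 6125, 4289 and 10192 in the Kir2.1 mice. The groups overlapped, and mouse 3 was the highest in each, the mouse of each group with low Xist. The log2 fold change was 0.52 (SE 0.32, interval -0.24 to 1.27, limma adjusted p = 0.640). It was 0.19 without Kir2.1 mouse 3 and 0.58 with Xist as a covariate (limma adjusted p = 0.331). Fmo5, a form that also inserts oxygen into carbonyl compounds, had 760, 686 and 879 in the controls and 879, 800 and 873 in the Kir2.1 mice, with overlapping groups (log2 fold change 0.14, interval -0.12 to 0.40, limma adjusted p = 0.730).

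Cell type markers differed between the same groups. Omp, which marks mature olfactory neurons, fell in Kir2.1 mice (log2 fold change -0.60, SE 0.08, limma adjusted p = 0.0466), and the summed level of its list of 6 genes was 89725 to 104711 normalized counts in the controls against 64955 to 77457 in the Kir2.1 mice. The 6 smooth muscle and pericyte markers summed to 27419 to 31363 in the controls and 33216 to 34529 in the Kir2.1 mice, with a median log2 fold change of 0.56, 5 of 6 at an unadjusted p under 0.05 and 0 of 6 at an adjusted p under 0.05 (limma). Endothelial markers summed to 1301 to 1635 and 1556 to 2266, fibroblast markers to 56351 to 170204 and 107121 to 151071, cartilage and bone markers to 1685 to 2346 and 3135 to 4220, and red blood cell genes to 11005 to 19896 and 20242 to 33607. These 4 lists had median log2 fold changes of 0.36, 0.50, 0.60 and 0.88. Of their genes 0 passed the adjusted threshold (limma), and 11 of 20 stood at an unadjusted p under 0.05, against 11.1% of all genes. Some lists of the epithelium itself and of immune cells also lay above 0. The medians were 0.38 for horizontal basal cells, 0.33 for respiratory ciliated cells, 0.27 for Bowman's gland and 0.26 for macrophages. Other lists of the epithelium did not rise, with medians of -0.16 for globose basal cells and 0.02 for immature neurons. Fat cell markers were at low levels, with a sum of 15.5 to 21.1 normalized counts in the controls and 20.8 to 29.5 in the Kir2.1 mice. Lep was at 0 in all 6. Adipoq, the only fat cell marker tested, had a log2 fold change of 0.40 (limma adjusted p = 0.718). Sustentacular markers, which label the supporting cells, had a median of -0.06, and their sum overlapped between the groups (208040 to 281498 and 233333 to 256035). The part of these cell types in the values of Aoc3 and Fmo1 was not tested.

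The second comparison asks whether PEA itself, given through the first days of life, went along with a different level of the enzymes that can degrade it. In PEA-exposed mice 0 of 8 members passed the adjusted p threshold of 0.05 (limma, Benjamini-Hochberg), against 31 of 17322 genes (0.179%). Only Fmo2 stood at an unadjusted p under 0.05, as did 15.0% of all genes. The groups did not overlap for 2 members, Fmo2 and Maoa, with exposed mice lower in both. This was so in either direction for 9.32% of all genes, and with exposed mice lower for 3.86%. The median log2 fold change was -0.16 over the members, 6 of which were lower, and -0.02 over all genes tested. By the methods, the odor came from a vial in the home cage of mother and pups, so exposure was given by cage. Which pups shared a cage or litter is not given in the sources used here. A difference between cages or litters cannot be told apart from one of exposure, and p-values measure only the spread between these mice.

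**Figure D3:**
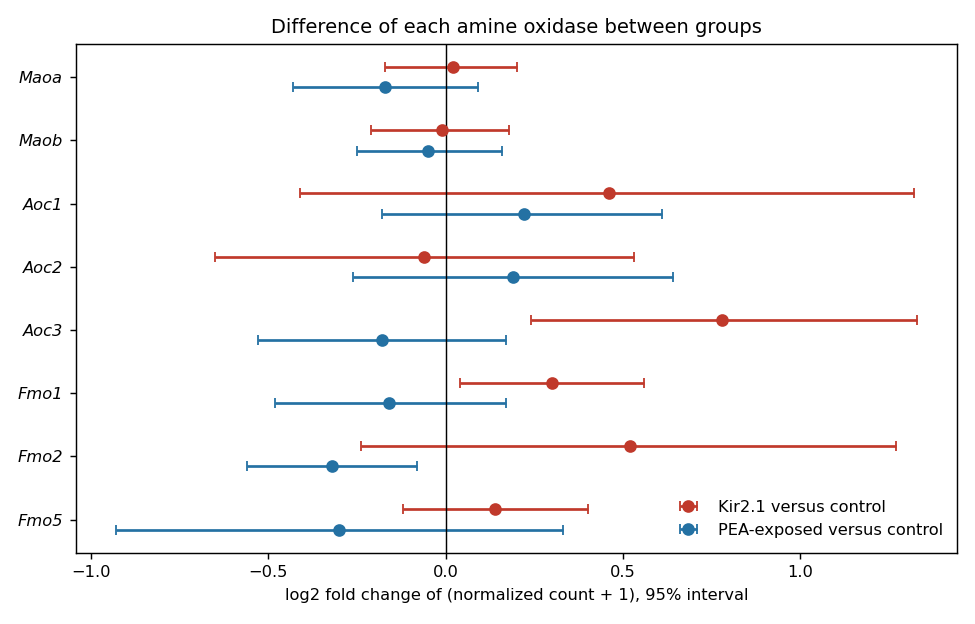
Log2 fold change of each amine oxidase with its 95% interval (limma) for Kir2.1 against control mice (red) and PEA-exposed against control mice (blue). The interval excluded 0 for Aoc3 and Fmo1 in the first comparison and for Fmo2 in the second, and 0 of 8 members passed the threshold after adjustment over all genes in either.

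Maob, the main PEA oxidase of the textbooks, had 505, 529, 488 and 503 normalized counts in the controls and 525, 494, 481 and 463 in the exposed mice. The groups overlapped and spread little. The log2 fold change was -0.05 (SE 0.09, limma adjusted p = 0.855), and its 95% interval of -0.25 to 0.16 leaves room for folds between 0.842 and 1.11. Maoa had 580, 566, 619 and 568 in the controls and 566, 420, 560 and 540 in the exposed mice. The groups only just did not overlap, the highest exposed mouse and the lowest control both printing as 566, and exposed mouse 2 was far below the others. The log2 fold change was -0.17 (SE 0.12, interval -0.43 to 0.09, limma adjusted p = 0.525) and -0.07 without exposed mouse 2. The exact permutation p of 0.0286, the smallest that 4 against 4 mice allow, is not adjusted for the number of genes examined.

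The balance of Maoa and Maob within a mouse was 0.20, 0.10, 0.34 and 0.18 on the log2 scale in the controls and 0.11, -0.23, 0.22 and 0.22 in the exposed mice, a difference of -0.12 (exact two-sided permutation p = 0.486). Both genes are on the X chromosome, and Xist told the mice apart by sex. Maoa ranged from 420 to 619 normalized counts in the 5 mice with high Xist and from 560 to 580 in the 3 with low Xist, and Maob from 463 to 525 and from 481 to 529. With Xist as a covariate the log2 fold change of Maoa was -0.16 and that of Maob -0.04.

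Fmo2 had 1669, 1990, 1791 and 2010 normalized counts in the controls and 1295, 1603, 1458 and 1633 in the exposed mice. All exposed mice lay below all controls. The level was 0.802-fold that of the controls (95% interval 0.680 to 0.945; log2 fold change -0.32, SE 0.11). The unadjusted limma p was 0.0135 and the adjusted p 0.218. The exact two-sided permutation p was 0.0286, the smallest this design allows. This permutation p follows from the lack of overlap and is not adjusted for the number of genes examined. With the vomeronasal level as a covariate the log2 fold change was -0.40 (limma adjusted p = 0.237). Without the 4 libraries with a high vomeronasal level it was -0.36, a value that rests on 1 control, control mouse 4, the highest of the controls.

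Fmo1 had 615, 533, 443 and 615 normalized counts in the controls and 518, 416, 592 and 453 in the exposed mice, with a wide overlap (log2 fold change -0.16, interval -0.48 to 0.17, limma adjusted p = 0.659). Fmo5 had 142, 315, 181 and 395 in the controls and 192, 211, 177 and 193 in the exposed mice. The exposed mice lay close together, with controls 2 and 4 above them, control 1 below them and control 3 among them. The log2 fold change was -0.30 (SE 0.28, interval -0.93 to 0.33, limma adjusted p = 0.657), and it was -0.06 without control mouse 4, -0.55 without control mouse 1 and -1.03 when control mouse 4, the highest, was the single control kept with a low vomeronasal level.

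Copper amine oxidases were low in this experiment. Aoc1 had 109, 69.7, 94.9 and 91.6 normalized counts in the controls and 108, 86.2, 106 and 123 in the exposed mice, with overlapping groups (log2 fold change 0.22, interval -0.18 to 0.61, limma adjusted p = 0.611). Aoc2 had 28.2, 29.7, 38.9 and 36.7 in the controls and 40.4, 40.4, 38.1 and 33.3 in the exposed mice, also overlapping (log2 fold change 0.19, interval -0.26 to 0.64, limma adjusted p = 0.697). Aoc3 had 121, 133, 113 and 144 in the controls and 103, 134, 125 and 92.4 in the exposed mice, with exposed mice on both sides of the control range's lower end (log2 fold change -0.18, interval -0.53 to 0.17, limma adjusted p = 0.636).

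Here too markers of other cell types were read beside the members. Fibroblast markers summed to 18500 to 26048 normalized counts in the controls and 16591 to 20562 in the exposed mice, and smooth muscle and pericyte markers to 13489 to 19172 and 10365 to 14305, with median log2 fold changes of -0.15 and -0.18. The 4 tested markers of ensheathing glia had a median of -0.26, and cartilage and bone markers one of -0.21. Sustentacular and horizontal basal markers had medians of 0.23 and 0.39, and Bowman's gland and respiratory ciliated markers had 0.39 and 0.33. Over all marker lists, 0 of 72 genes tested passed the adjusted threshold (limma). At an unadjusted limma p under 0.05, 10 of the 72 were higher and 7 lower, against 15.0% of all genes in either direction. The part of these cell types in the values of Fmo2 was not tested.

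The other enzymes of amine and aldehyde metabolism were counted over 7 lists with 61 genes. In Kir2.1 mice 54 of them were tested and 0 passed the adjusted p threshold (limma), with 9 at an unadjusted p under 0.05, all higher in Kir2.1 mice (against 4.93% of all genes tested in this direction and 11.1% in either), and a median log2 fold change of 0.11. In PEA-exposed mice 51 were tested and 0 passed, with 3 higher and 1 lower at an unadjusted p under 0.05 (against 15.0% of all genes tested) and a median of 0.03. By list, the medians in Kir2.1 mice ran from -0.09 for P450 enzymes and their electron donors to 0.35 for polyamine and other amine oxidases. This last list holds the lysyl oxidases and also Sat1. In PEA-exposed mice amine synthesis and amine conjugation, the lowest lists, each had -0.13.

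**Figure D4:**
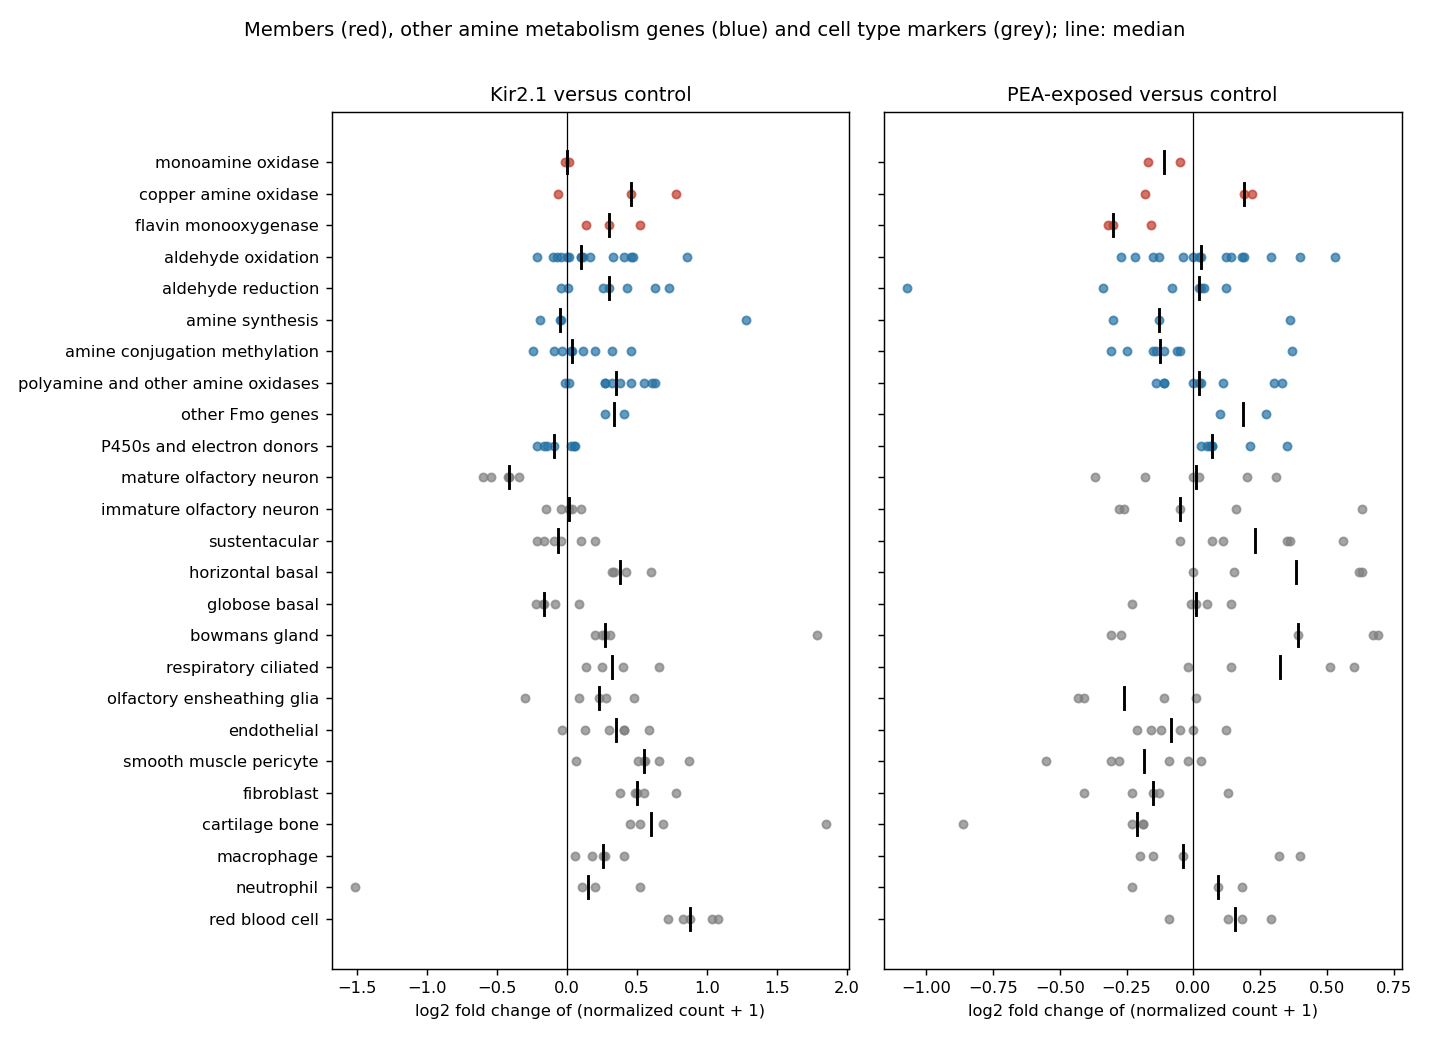
Log2 fold changes of the 8 amine oxidases (red, by class), of other genes of amine metabolism (blue, by list) and of cell type markers (grey, by list) in both comparisons, with 1 point per gene tested and a black line at the median. In Kir2.1 mice the mature olfactory neuron markers lay at -0.34 or lower. Smooth muscle, fibroblast, cartilage and bone, and red blood cell markers lay above 0. Markers of horizontal basal cells, Bowman's gland, respiratory ciliated cells and macrophages did as well. So did 9 of the 10 genes in the list of polyamine and other amine oxidases.

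Downstream of the oxidases, aldehydes are oxidized by genes such as Aldh2, the mitochondrial aldehyde dehydrogenase, and Aox2, an aldehyde oxidase. In the Kir2.1 experiment Aldh2 was at 22468 ± 3039 normalized counts in controls and 21392 ± 2167 in Kir2.1 mice (SD, n = 3 per group; log2 fold change -0.07), and Aox2 at 13307 ± 626 and 13011 ± 1391 (-0.04). In the PEA experiment Aox2 was at 6948 ± 525 in controls and 7093 ± 562 in exposed mice (SD, n = 4 per group; 0.03), and Aldh1a1, a cytosolic aldehyde dehydrogenase, at 3243 ± 1005 and 3459 ± 277 (0.14). The reductases Akr1a1 and Adh5 had log2 fold changes of 0.01 and -0.04 in Kir2.1 mice and of -0.08 and 0.04 in PEA-exposed mice. The groups overlapped for each of these genes. Aldh2 in the PEA experiment, named after its value was seen, was at 1054 ± 132 in controls and 1399 ± 220 in exposed mice (0.40, SE 0.14, limma adjusted p = 0.221), with overlapping groups. The reductase Akr1b8, also named after its value was seen, was at 36.8 ± 11.4 in controls and 16.7 ± 4.25 in exposed mice, without overlap (-1.07, SE 0.30), and had the lowest limma adjusted p of the 7 lists there with 0.157.

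Of the enzymes that make amines, Odc1, which makes putrescine, and Hdc, which makes histamine, had log2 fold changes of -0.04 and -0.05 in Kir2.1 mice and -0.13 and -0.30 in PEA-exposed mice. Of the enzymes that conjugate or methylate amines, the sulfotransferases Sult1c1 and Sult1d1 led in both experiments, with log2 fold changes of -0.09 and 0.12 in Kir2.1 mice and -0.05 and -0.31 in PEA-exposed mice. The P450 enzymes Cyp2a5 and Cyp2g1, abundant in olfactory mucosa, had -0.09 and -0.21 in Kir2.1 mice and 0.03 and 0.07 in PEA-exposed mice. Inmt, which methylates indolic and other amines, is also named after its values were seen. It was at 2005 ± 185 in controls and 2759 ± 192 in Kir2.1 mice (0.46, SE 0.09), the lowest limma adjusted p of the 7 lists there with 0.129.

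Of the Fmo genes outside the 8, Fmo6 was at 7760 ± 1777 in controls and 9196 ± 935 normalized counts in Kir2.1 mice (log2 fold change 0.27, limma adjusted p = 0.644), and at 2517 ± 137 and 2707 ± 248 in the PEA experiment (0.10, limma adjusted p = 0.653). Lysyl oxidases are copper amine oxidases of another fold that cross-link collagen and elastin. Lox was at 1827 ± 502 in controls and 2634 ± 300 in Kir2.1 mice (log2 fold change 0.55, SE 0.19, limma adjusted p = 0.330), and Loxl1 at 2015 ± 387 and 2746 ± 237 (0.46, SE 0.14, limma adjusted p = 0.295). The other members of this list at an unadjusted p under 0.05, named after their values were seen, were Loxl2, Loxl3 and the polyamine oxidase Paox, with log2 fold changes of 0.63, 0.38 and 0.32. In PEA-exposed mice Lox had a log2 fold change of -0.14 and Sat1, which acetylates polyamines, one of -0.11.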

How the data were processed

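Olfactory epithelia of 14 pups were profiled by RNA-seq. According to the methods, reads were quantified with Salmon 1.3.0 against Ensembl transcripts (GRCm38) and scaled with DESeq2 1.30.0. The values deposited by the authors are a signal per gene after scaling, neither whole reads nor per length, so count-based tests were not run. Salmon is described with 1 setting for stranded reads, also for the unstranded Kir2.1 libraries. Whether this left out reads cannot be told from these values.

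The 8 genes, the gene lists and the markers were chosen with earlier results of these data known. Genes with a mean of at least 10 were tested in each experiment alone with limma 3.58.1 (R 4.3.3; log2 of the value plus 1, moderated variances that follow the mean, Benjamini-Hochberg adjustment over all genes tested, threshold 0.05), in place of the study's test on counts. For the members, exact two-sided permutation tests were added. Their p is the smallest possible wherever the groups do not overlap, and is not adjusted. Scripts were tested on simulated data. Other work was done in Python 3.11.15 (pandas 2.3.3, numpy 2.4.6, matplotlib 3.10.9, scipy 1.17.1). Positions, exons and lengths came from GENCODE vM21 on GRCm38, and shared sequence was found with words of 31 bases and exact matching of transcripts.

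Named were all members and, in each of 7 lists of other genes, those past the threshold or else the 2 with the highest mean. Some genes that this rule names are not reported here. Alternatives were no filter or a minimum mean of 50, a pseudocount of 0.5 or 5, no trend, robust moderation, quantile normalization, median centring, Xist or the mean of vomeronasal receptor genes as a covariate, the replicate number as a block, and each mouse left out. Leaving out 4 PEA libraries with a mean log2 vomeronasal value above 1 was added after the data were seen. Replicate 4 of the PEA controls has another number in its library name.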

Additional observations from a re-analysis of the deposited data

How the results depend on the processing

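The count of members past the threshold was 0 of 8 in both comparisons under every alternative run. The lowest limma adjusted p of a member was 0.190 in Kir2.1 mice (Aoc3) and 0.168 in PEA-exposed mice (Fmo2). It was 0.151 (Fmo5) with 1 control kept, which is assumed to vary like the exposed mice. Of 295 refits of single members, 286 kept direction and side of the threshold and 9 turned in sign, all in the Kir2.1 comparison. Maoa was -0.0209 with median centring, and with a mouse left out Maoa ran from -0.0308 to 0.0527, Maob from -0.0840 to 0.0355, Aoc1 from -0.0048 to 0.69, and Aoc2 from -0.25 to 0.182. The difference of Maoa and Maob within a mouse, not among these refits, ran from -0.0346 to 0.14. Aoc2 has no PEA value at a mean of at least 50.

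The count over all genes was less stable. In Kir2.1 mice it was 70, against 20 with no trend, 44 with Xist and 23 with the vomeronasal level as a covariate, and 23 to 44 with any of the 6 mice left out. In PEA-exposed mice it was 31, against 52 with no filter (more genes were then tested), 20 with the vomeronasal covariate, 49 without the 4 libraries with high vomeronasal signal, and 19 to 43 with a mouse left out, the lowest counts coming without exposed mouse 2, 3 or 4. Causes beyond these constructions were not tested. Same-numbered mice did not deviate together (r of -0.06 to 0.16 and -0.05 to 0.13), and when this number was a block the counts were 9 and 23, with 0 members. Depth is unknown, and Aoc2 had the lowest values, in the PEA experiment.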

Other observations

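The genes whose deviations from the group means were most like those of each member were found among 16705 genes with a mean of at least 10 in both experiments. They are a description over 14 mice, in which all genes of a mouse come from the same library and scaling. They were picked as the highest of all these genes, so their r is high in part by selection. For Aoc3 they were Htra3 (Pearson r = 0.94), Fmod (0.94) and Decr2 (0.89). For Fmo1 they were Acta2 (0.88), Olfr1212 (0.88) and Lipa (0.86). For Aoc1 they were Rp1 (0.94), Dpt (0.94) and Adamts16 (0.93). For Maoa they were Gcc2 (0.95), Pigl (0.90) and Plaa (0.90), and for Maob Ppfia2 (0.95), Fhod3 (0.91) and Snapc1 (0.89). For Aoc2 they were Cdc25a (0.91), Nipsnap2 (0.87) and Atxn7 (0.85), and for Fmo2 Gorasp1 (0.93), Sfi1 (0.91) and Atxn2 (0.90). For Fmo5 they were Jph3, Zbtb25 and Agap1, each at 0.96. Within the PEA experiment alone the value was 0.28 for Atxn2 with Fmo2 and 0.53 for Nipsnap2 with Aoc2. Within the Kir2.1 experiment alone it was 0.39 for Jph3 with Fmo5. These pairs rest wholly or mostly on 1 experiment.

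Among the members themselves, Maoa and Maob, neighbours on the X chromosome, had r = -0.14 over the 14 mice, Fmo1 and Fmo2, neighbours on chromosome 1, had 0.08, and Aoc2 and Aoc3, neighbours on chromosome 11 that share sequence, had -0.49 (-0.82 in the Kir2.1 and 0.26 in the PEA experiment).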
